A study of Homo sapiens with 3 samples.

Results

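The genes described here are 10 members of the human small RNA machinery: the processing enzymes DROSHA and DICER1 with their partners DGCR8 and TARBP2, the export receptor XPO5, the Argonautes AGO1 to AGO4, and the silencing scaffold TNRC6B. They were taken by symbol from the platform's gene annotation, keeping every probe set (a group of array probes read as a unit) that carries the symbol of 1 of these genes alone. This gave 36 probe sets for 10 of the 18239 genes on the array, and no probe set that lists a member together with another gene. The 10 genes were listed with earlier results of these arrays known, so their values are given as a description, with no test.

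The cells were GFP-SAS, the labels' name for a culture of the SAS human tongue carcinoma line. They received 10 nM of a small interfering RNA (siRNA) for 24 h: siAkt1-22 or siAkt1-58, both directed against AKT1, or siNT, a non-targeting siRNA. Each siRNA was measured on 1 array, in cells of the same line, so every group had been given an siRNA and no untransfected cells are compared here. The study asked how the expression profile differs after AKT1 knockdown, and with 1 array per siRNA no difference has a replicate check.

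In the microRNA pathway, a long primary transcript folds into a hairpin that DROSHA, held by the RNA-binding protein DGCR8, cuts out in the nucleus. XPO5 carries the hairpin to the cytoplasm, where DICER1 with TARBP2 trims it to a short duplex, and an Argonaute keeps a strand of that duplex as its guide. Bases 2 to 8 of the guide, the seed, pair with mRNAs, and TNRC6 proteins bound to the Argonaute recruit deadenylases. A synthetic siRNA enters the same Argonautes, among which AGO2 is the one best known for slicing a fully matched target.

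The substrate of these enzymes is shown by the let-7a-1 hairpin from RefSeq (GRCh38.p14, chr9:94175957-94176036, + strand), with the 2 mature arms that remain after DROSHA and DICER1 cutting in capitals.
let-7a-1 hairpin: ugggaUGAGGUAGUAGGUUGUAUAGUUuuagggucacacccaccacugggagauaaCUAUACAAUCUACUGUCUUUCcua

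The promoters of 4 members are shown because DICER1, AGO1 and XPO5 were the members at least 2-fold lower with siAkt1-22, while TNRC6B stood higher with both siRNAs against AKT1. Each runs from 250 bases before to 50 bases after a gene start in RefSeq (GRCh38.p14). Capitals mark 2 motifs on either strand, the GC box with the letters GGGCGG and the box named after its letters CCAAT. The windows are chr14:95157480-95157779 (- strand) for DICER1, which is the first of 5 listed for this gene, chr1:35882959-35883258 (+ strand) for AGO1, chr6:43575989-43576288 (- strand) for XPO5 and chr22:40044584-40044883 (+ strand) for TNRC6B.
DICER1: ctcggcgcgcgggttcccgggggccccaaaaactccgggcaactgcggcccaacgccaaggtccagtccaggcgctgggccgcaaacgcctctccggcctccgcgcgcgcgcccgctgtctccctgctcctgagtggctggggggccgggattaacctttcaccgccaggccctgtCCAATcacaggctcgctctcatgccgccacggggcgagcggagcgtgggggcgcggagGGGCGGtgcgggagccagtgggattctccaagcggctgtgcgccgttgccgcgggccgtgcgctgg
AGO1: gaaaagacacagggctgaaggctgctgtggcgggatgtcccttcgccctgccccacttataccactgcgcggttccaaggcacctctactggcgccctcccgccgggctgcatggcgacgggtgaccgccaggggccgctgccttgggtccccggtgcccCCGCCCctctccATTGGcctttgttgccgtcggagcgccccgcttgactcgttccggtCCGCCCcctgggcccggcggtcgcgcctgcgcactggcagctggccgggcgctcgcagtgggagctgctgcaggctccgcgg
XPO5: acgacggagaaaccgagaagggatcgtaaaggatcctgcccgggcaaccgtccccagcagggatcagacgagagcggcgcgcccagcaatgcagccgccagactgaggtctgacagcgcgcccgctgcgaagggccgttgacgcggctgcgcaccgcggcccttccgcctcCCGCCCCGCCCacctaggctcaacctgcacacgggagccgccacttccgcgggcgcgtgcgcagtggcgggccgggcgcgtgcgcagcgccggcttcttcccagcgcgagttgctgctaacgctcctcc
TNRC6B: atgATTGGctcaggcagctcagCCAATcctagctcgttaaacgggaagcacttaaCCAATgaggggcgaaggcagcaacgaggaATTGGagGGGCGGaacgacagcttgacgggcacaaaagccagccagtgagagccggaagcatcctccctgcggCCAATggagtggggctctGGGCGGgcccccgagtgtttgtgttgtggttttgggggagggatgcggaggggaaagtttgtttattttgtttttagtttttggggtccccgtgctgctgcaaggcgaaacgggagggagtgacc

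The DICER1 window held 1 GC box and 1 CCAAT box, the AGO1 window 2 and 1, and the XPO5 window 2 overlapping GC boxes and 0 CCAAT boxes. TNRC6B had 2 GC boxes and 5 CCAAT boxes. Several CCAAT boxes were not particular to TNRC6B. Among members whose windows are not shown, DGCR8 had 4, DROSHA 3 and the first of 3 TARBP2 windows 3, while AGO3 and AGO4 had 0. At least 1 GC box was present in 45.0% and at least 1 CCAAT box in 34.6% of all 35116 promoter windows of this length, and 0.359% held 5 or more CCAAT boxes. The E-box with the letters CACGTG was in none of the 4 windows shown, nor was the FOXO motif with the letters GTAAACA, nor the TATA box as TATAAA. Of all windows 7.26%, 3.42% and 11.5% hold these in the same order. A match is a run of letters and not a measured binding site.

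Across 49386 probe sets the median log2 value was 4.59 with siAkt1-22, 4.58 with siAkt1-58 and 4.59 with siNT. AKT1, the target, read 3.67 with siAkt1-22 and 3.47 with siAkt1-58, against 6.75 with siNT. The siAkt1-22 array stood apart in other measures. The actin gene ACTB read 9.03 with siAkt1-22, 12.33 with siAkt1-58 and 12.12 with siNT, and the 24 probe sets for poly-A RNA spiked in before labelling had medians of 5.52, 6.08 and 6.09 in the same order. GAPDH differed from siNT by -0.05 with siAkt1-22, and the hybridisation controls by a median of -0.04. The ACTB control probe sets at the 3' end exceeded those at the 5' end by 2.07 with siAkt1-22, 1.17 with siAkt1-58 and 1.24 with siNT, while the same gap for GAPDH was -0.01, -0.04 and -0.01. Of 10 epithelial markers, 7 were matched and 6 of these passed the filter on dim genes, with KRT14 (3.67, 3.67 and 3.65) below it. The mean level of the 7 matched was 9.65 with siAkt1-22, 9.65 with siAkt1-58 and 9.58 with siNT. The 6 fibroblast markers reached at most 4.33. Of the 4 endothelial markers 2 were below the filter level, while PECAM1 and VWF read 4.50 and 4.40 on all 3 arrays. Among the 4 leukocyte markers matched PTPRC read 2.89 on all 3, while CD68, also a lysosomal protein of other cells, read 6.75, 7.14 and 6.33.

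A gene was represented by its brightest probe set, and genes whose mean log2 value reached 3.93, the 30th percentile, were compared. All 10 members passed, as did 31 of their 36 probe sets. In the siAkt1-22 array DICER1, AGO1 and XPO5 lay 2-fold or more below siNT, 3 of 10 members, where 5.97% of all 12779 genes were that much lower. No member was at least 2-fold higher with siAkt1-22 (4.4% of all genes). With siAkt1-58, 0 of 10 members were 2-fold lower (3.58% of all genes) and 0 were 2-fold higher (1.54%), so none passed with both siRNAs (1.17% lower and 0.736% higher). Against siAkt1-58, the same 3 genes were at least 2-fold lower with siAkt1-22 (5.28% of all genes), and 0 were higher (5%), a comparison that does not use the siNT array. By probe set, 7 of the 31 were at least 2-fold lower with siAkt1-22 (6.6% of 28249 probe sets), 0 with siAkt1-58 (3.56%) and 0 with both (1.22%). DICER1 supplied 4 of these 7, and DROSHA, XPO5 and AGO1 1 each. At least 2-fold higher were 2 with siAkt1-22 (3.9%), 5 with siAkt1-58 (1.44%) and 2 with both (0.63%), all of TNRC6B. Between the siRNAs 7 were lower with siAkt1-22 (5.91%) and 0 higher (4.51%). At a limit of 1.5-fold, 6 of 10 members were lower with siAkt1-22 (12% of all genes) and 1 higher (12.3%), and 1 was lower with siAkt1-58 (8.74%) and 1 higher (6.58%). Between the siRNAs 5 were then lower with siAkt1-22 (10.8%) and 0 higher (12.1%). The median over the 10 members was -0.68 with siAkt1-22 and -0.04 with siAkt1-58, beside 0 and 0 over all genes compared. Since the members were chosen with these differences in view, nothing is read from the counts beyond their size.

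**Figure D1:**
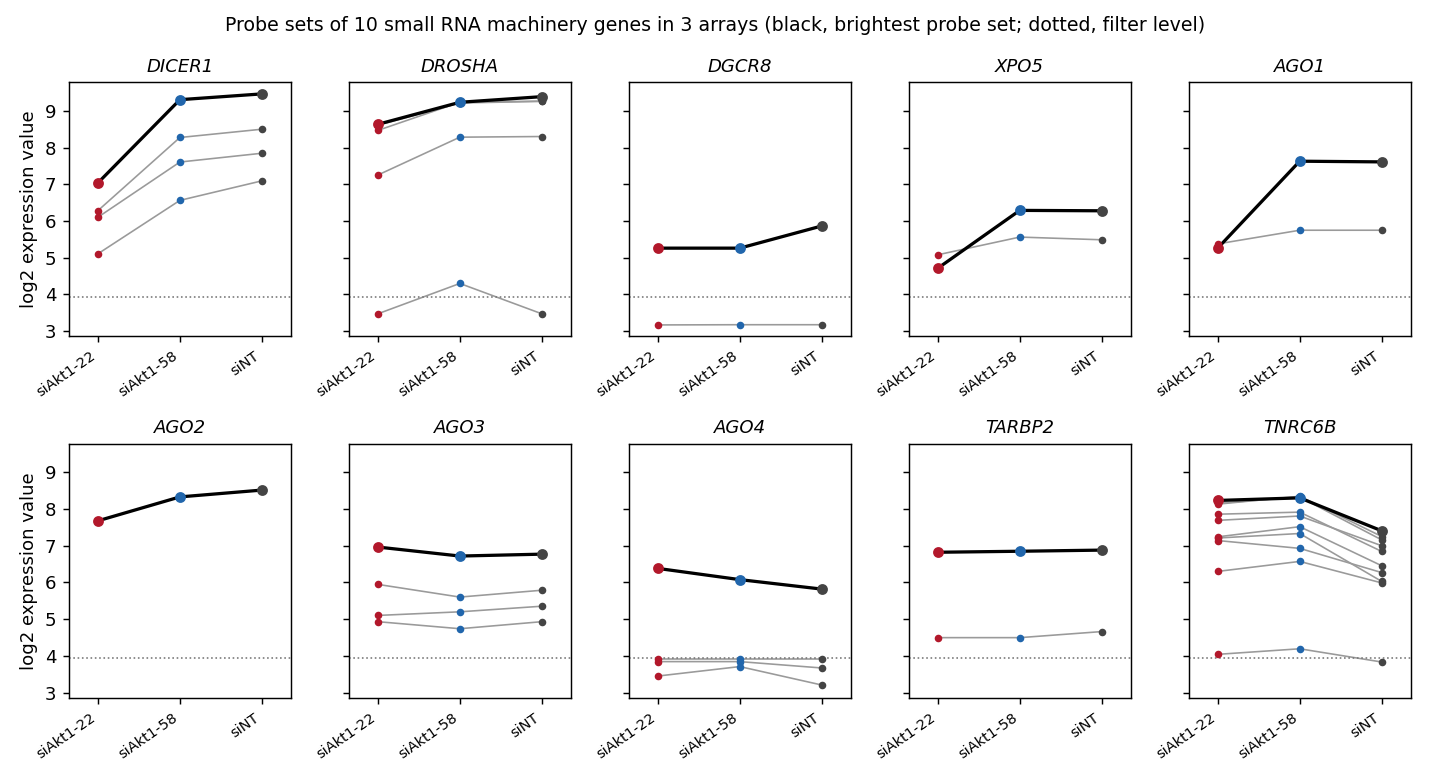
Each panel plots the log2 expression values (vertical axis) of a gene's probe sets on the siAkt1-22, siAkt1-58 and siNT arrays, with a line per probe set, the brightest in black, and the filter level of 3.93 dotted. The 4 DICER1 lines all lie lowest with siAkt1-22, whereas the 10 TNRC6B lines all lie lowest with siNT.

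DICER1, the enzyme that makes the final cut, was the member furthest below siNT with siAkt1-22. Its brightest probe set, 11719525_s_at, read 7.04 with siAkt1-22 and 9.31 with siAkt1-58, against 9.46 with siNT. The siAkt1-22 array was thus low and the other arrays lay close together. The difference from siNT was -2.43 with siAkt1-22, or 5.38-fold lower, and -0.16 with siAkt1-58. Of the 12779 genes compared, 56 were further below siNT with siAkt1-22 than DICER1, and 3060 were with siAkt1-58.

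The other DICER1 probe sets gave the same order of arrays. Probe set 11755211_a_at read 6.28 with siAkt1-22 and 8.28 with siAkt1-58, against 8.50 with siNT. For 11757970_s_at the values were 6.10 and 7.61, against 7.85, and for 11740190_s_at they were 5.11 and 6.56, against 7.10. Differences from siNT thus ran from -2.43 to -1.75 with siAkt1-22 and from -0.53 to -0.16 with siAkt1-58. All 4 were at least 2-fold lower with siAkt1-22, and 0 of 4 with siAkt1-58. In Affymetrix naming a set ending in _a_at matches transcripts of a single gene and 1 ending in _s_at may match more than a single gene, and both kinds are present here. In bulk RNA, less DICER1 mRNA in every cell and its loss from some of the cells cannot be told apart.

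DROSHA, which makes the first cut, was lower with siAkt1-22 by a smaller amount. Its brightest probe set read 8.63 with siAkt1-22 and 9.24 with siAkt1-58, against 9.39 with siNT, differences of -0.75 and -0.15. Over the 4 DROSHA probe sets above the filter level the differences were from -1.05 to -0.65 with siAkt1-22 and from -0.15 to -0.02 with siAkt1-58, so siAkt1-22 was lowest in all 4. The lowest of them, 11749636_a_at, was 2.07-fold lower with siAkt1-22. A dim DROSHA probe set below the filter level ran otherwise, at 3.47 with siAkt1-22 and 4.30 with siAkt1-58, against 3.47 with siNT.

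DGCR8, DROSHA's RNA-binding partner, read 5.26 with siAkt1-22 and 5.26 with siAkt1-58, against 5.87 with siNT. It was the 1 member lower by at least 1.5-fold with both siRNAs, at -0.61 and -0.61. The siAkt1 arrays held exactly equal values, as did some pair of arrays in 45.3% of all probe sets. The other DGCR8 probe set was below the filter level, at 3.17, 3.18 and 3.18.

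XPO5, the exportin that carries precursor hairpins out of the nucleus, was 2.96-fold lower with siAkt1-22 in its brightest probe set. That set read 4.71 with siAkt1-22 and 6.29 with siAkt1-58, against 6.28 with siNT. The second set, 11729165_a_at, read 5.08 and 5.56, against 5.49. Both sets were lowest with siAkt1-22, but the sizes differed, at -1.57 and -0.41. With siAkt1-58 they stood at 0.01 and 0.07 from siNT. Averaged over its probe sets XPO5 was -0.99 with siAkt1-22, just short of 2-fold.

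TARBP2, the double-stranded RNA-binding partner of DICER1, was level across the arrays. Its brightest probe set read 6.82 with siAkt1-22 and 6.85 with siAkt1-58, against 6.88 with siNT. The dimmer set was -0.17 from siNT with both siRNAs.

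Among the Argonautes, which hold the guide strand, AGO1 and AGO2 were lower with siAkt1-22 in their brightest probe sets while AGO3 and AGO4 were not. The brightest AGO1 probe set, 11720866_a_at, read 5.26 with siAkt1-22 and 7.63 with siAkt1-58, against 7.61 with siNT. It was 5.11-fold lower with siAkt1-22, and 65 genes were further below siNT there. The second AGO1 set, 11755432_a_at, read 5.38 with siAkt1-22 and 5.75 with siAkt1-58, against 5.75 with siNT. Both sets were lowest with siAkt1-22, at -2.35 and -0.37, and averaging them gave -1.36. The size of the AGO1 difference therefore rests on the choice of probe set.

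AGO2, the slicing Argonaute, has 1 probe set on the array. It read 7.68 with siAkt1-22 and 8.33 with siAkt1-58, against 8.52 with siNT, which put it below siNT by 1.79-fold in the siAkt1-22 array and by 1.14-fold in the siAkt1-58 array. With siAkt1-22, 1008 genes were further below siNT.

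AGO3 read 6.96 with siAkt1-22 and 6.72 with siAkt1-58, against 6.77 with siNT in its brightest set. Its 4 probe sets gave differences from -0.25 to 0.19 with siAkt1-22 and from -0.19 to -0.05 with siAkt1-58, with no common direction for siAkt1-22. AGO4 was highest with siAkt1-22. Its brightest set read 6.38 with siAkt1-22 and 6.08 with siAkt1-58, against 5.82 with siNT, differences of 0.56 and 0.26. The other 3 AGO4 sets were dim, under 3.93 on every array, and differed from siNT by 0 to 0.24 with siAkt1-22 and by 0 to 0.50 with siAkt1-58. AGO4, AGO1 and AGO3 lie next to each other in this order on chromosome 1 among protein-coding genes, so these 3 neighbours had unlike differences with siAkt1-22.

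TNRC6B, which links Argonautes to the deadenylases, was the member that stood higher with both siRNAs in every probe set. Its brightest set, 11758580_s_at, read 8.23 with siAkt1-22 and 8.30 with siAkt1-58, against 7.41 with siNT. The siAkt1 arrays lay close together and siNT was lowest. The differences were 0.83 and 0.90, with 901 genes further above siNT with siAkt1-22 and 289 with siAkt1-58.

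All 10 TNRC6B probe sets were above siNT with both siRNAs, from 0.21 to 1.18 with siAkt1-22 and from 0.36 to 1.31 with siAkt1-58. The widest was 11736497_a_at, at 7.21 with siAkt1-22 and 7.33 with siAkt1-58, against 6.03 with siNT. The smallest was the dim set 11752790_a_at, at 4.04 and 4.19, against 3.83. At least 2-fold higher were 2 of the 10 with siAkt1-22 (3.9% of all 28249 probe sets above the filter level), 5 with siAkt1-58 (1.44%) and 2 with both (0.63%). Probe sets of a gene read the same mRNA and are not replicates. The 1.5-fold limit placed TNRC6B higher with both siRNAs (3.2% of all genes) and DGCR8 lower with both (3.58%).

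**Figure D2:**
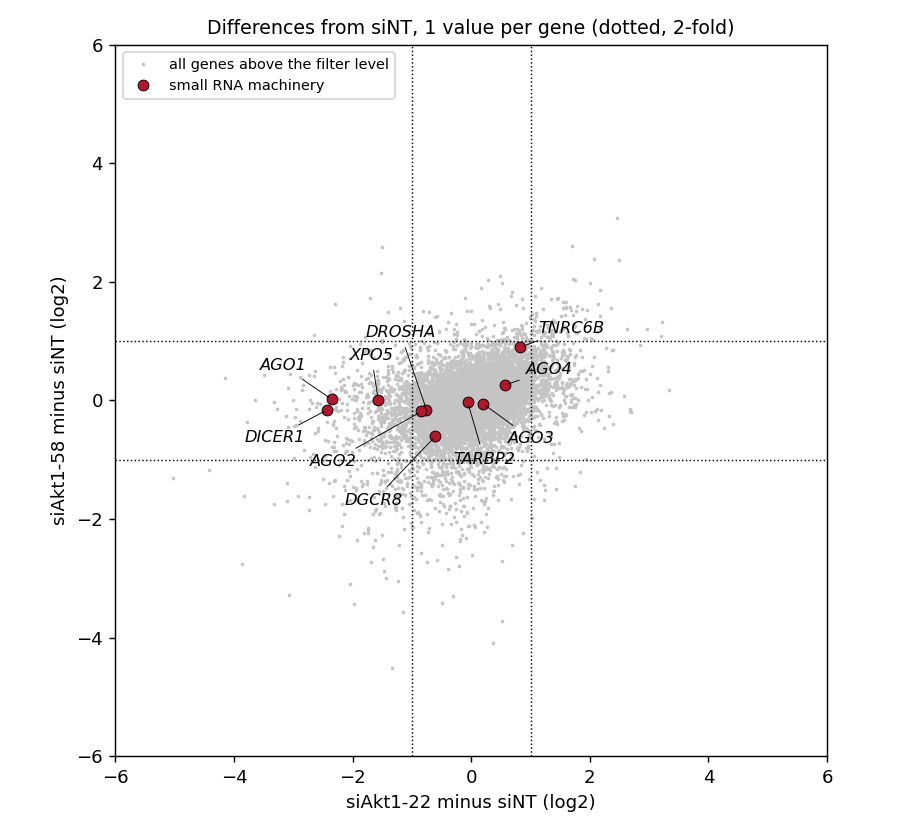
The log2 difference from siNT with siAkt1-22 (horizontal axis) is plotted against that with siAkt1-58 (vertical axis) for the 12779 genes compared (grey) and the 10 members (red), with 2-fold limits dotted. DICER1, AGO1 and XPO5 lie left of the lower limit near 0 on the vertical axis, and TNRC6B lies at 0.83 and 0.90; both axes use the same siNT array.

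Likeness of pattern was measured as the Euclidean distance over both differences from siNT, which rest on 3 arrays. Closest to DICER1 were SMIM10 (-2.42 and -0.09), MAN2A1 (-2.38 and -0.21), MRPS28 (-2.50 and -0.20), RGCC (-2.33 and -0.15) and RIC8A (-2.28 and -0.15), at distances from 0.064 to 0.15. Within 0.25 of DICER1 lay 17 genes, against 257 for AGO2 and 135 for TNRC6B. The genes closest to AGO2 were HTATSF1 (-0.83 and -0.19), ZNF639 (-0.83 and -0.16) and ALKBH5 (-0.83 and -0.16). Those closest to TNRC6B were ITPKC (0.83 and 0.88), FIG4 (0.85 and 0.87) and ZSWIM8 (0.85 and 0.87), the last of which is also on the list of genes for tailing and decay of small RNAs.

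Other genes of the pathway were followed in lists by role. Of 12 microprocessor and nuclear cofactors compared, 1 was at least 2-fold lower with siAkt1-22 (5.97% of all genes) and 2 with siAkt1-58 (3.58%), and the medians were -0.07 and -0.21. The same shares, and those of 4.4% and 1.54% for genes 2-fold higher, stand beside the counts of the lists that follow. SRSF3, a splicing factor that also aids primary microRNA processing, read 10.13 with siAkt1-22 and 10.78 with siAkt1-58, against 11.30 with siNT. The cap-binding subunit NCBP1 read 8.42 and 6.74, against 7.87, and the signal transducer SMAD4 stood at 0.52 and -1.14 from siNT. In their brightest probe sets both thus lay below siNT with siAkt1-58 and above it with siAkt1-22. For SMAD4, 4 of 6 probe sets were above siNT with siAkt1-22, with differences from -0.34 to 0.52 over the 6.

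The 11 export factors and Dicer partners had medians of 0.06 and -0.30. DHX9, an RNA helicase, was lower with siAkt1-22 in all 3 probe sets and read 7.22 with siAkt1-22 and 8.40 with siAkt1-58, against 8.85 with siNT. RIGI, the sensor of double-stranded RNA, was the list's gene at least 2-fold higher with siAkt1-22, at 7.91 and 6.97, against 6.67. RAN, the small GTPase that powers XPO5, stood at -0.09 and -0.31.

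Partners of TNRC6 proteins and Argonautes (16 genes) had medians of -0.03 and 0. The scaffold LIMD1 was the 1 gene past 2-fold, at 5.17 with siAkt1-22 and 6.71 with siAkt1-58, against 6.57 with siNT. The chaperone HSP90AA1, which helps load Argonautes, was -0.13 and -0.33, and the poly(A)-binding protein PABPC1 had the same value on all 3 arrays. Of 21 deadenylation and decapping genes, with medians of 0.04 and 0, PAN2 was 2-fold higher with siAkt1-22 (5.82 and 4.68, against 4.68) and the decapping enzyme DCP2 2-fold lower with siAkt1-58 (7.59 and 7.09, against 8.16). The deadenylase CNOT7 was 0.28 and 0.05. Of 12 genes for tailing and decay of small RNAs, with medians of 0 and -0.05, the exonuclease ERI1 was 2-fold lower with siAkt1-58 (7.29 and 6.83, against 7.96). XRN2 was -0.22 and -0.36, and TENT4A -0.70 and -0.44. In the PIWI clade, the germline relatives of the Argonautes, 3 of 4 genes were below the filter level and PIWIL2 read 4.04 and 4.14, against 4.18.

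**Figure D3:**
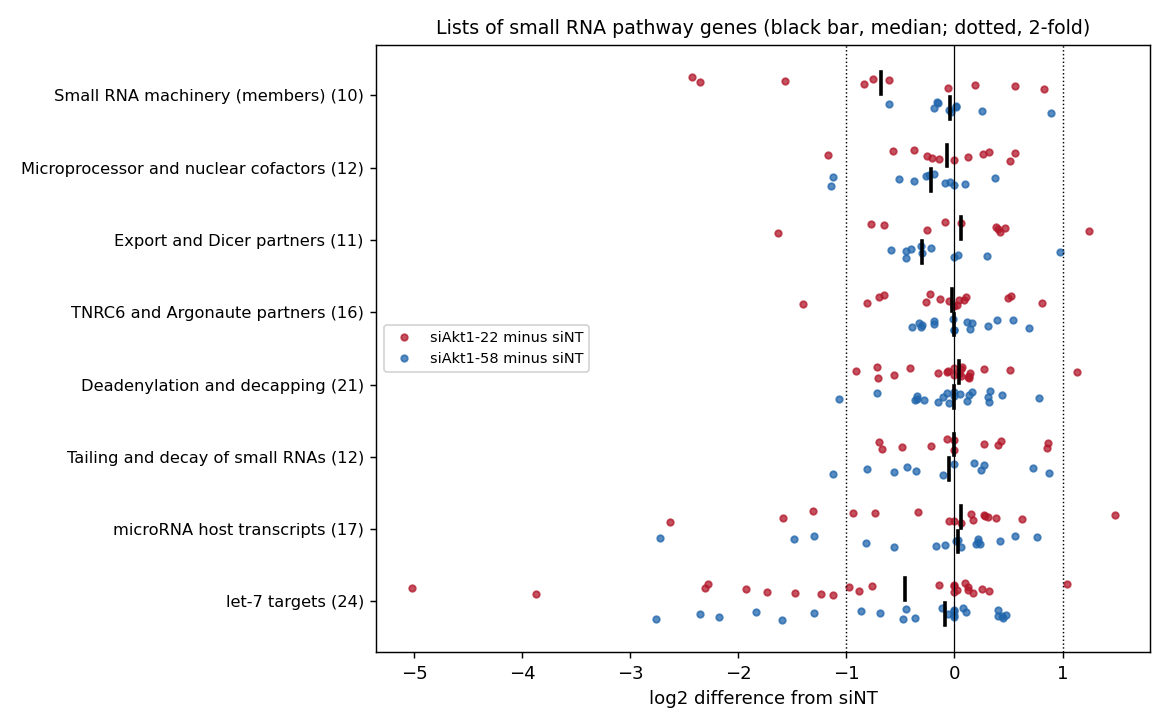
Points are genes of each list (number in brackets) at their log2 difference from siNT, red for siAkt1-22 and blue for siAkt1-58, with the median as a black bar. The member genes have medians of -0.68 and -0.04, and the 24 let-7 targets -0.45 and -0.09. Over the 20 let-7 targets not known to be low when the list was written, both medians are 0.

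The array reads the host transcripts from which many microRNAs are cut, not the microRNAs themselves. The 17 host transcripts compared had medians of 0.06 and 0.03, with 3 at least 2-fold lower with siAkt1-22 (5.97% of all genes), 3 with siAkt1-58 (3.58%) and 1 with both (1.17%). At least 2-fold higher were 1 with siAkt1-22 (4.4%) and 0 with siAkt1-58 (1.54%). A selection of the mature microRNAs within the named hosts is shown with let-7a to display which hosts carry a shared seed. The sequences are from RefSeq (GRCh38.p14) and grouped by seed, which is in capitals.
hsa-let-7a-5p: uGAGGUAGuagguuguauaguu
hsa-miR-17-5p: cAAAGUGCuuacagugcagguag
hsa-miR-20a-5p: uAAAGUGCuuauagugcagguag
hsa-miR-106b-5p: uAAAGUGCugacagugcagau
hsa-miR-15a-5p: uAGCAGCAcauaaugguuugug
hsa-miR-16-5p: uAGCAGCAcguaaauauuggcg
hsa-miR-15b-5p: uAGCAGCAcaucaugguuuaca
hsa-miR-103a-3p: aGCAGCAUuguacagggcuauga
hsa-miR-21-5p: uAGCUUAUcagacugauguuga

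The host of miR-17 and miR-20a, MIR17HG, was lower with both siRNAs, at 4.71 with siAkt1-22 and 4.72 with siAkt1-58, against 6.02 with siNT, and its 3 probe sets were on the same side. MCM7, a replication helicase subunit whose gene holds miR-106b of the same seed, read 11.41 and 9.78, against 11.26, and so was low with siAkt1-58. DLEU2, which holds miR-15a and miR-16, was also lowest with siAkt1-58 (7.64 and 5.65, against 8.37). The condensin gene SMC4, which holds miR-15b of that seed and another miR-16 gene, was lowest with siAkt1-22 (9.78 and 10.55, against 11.37). Hosts of microRNAs with a shared seed therefore did not share an order of arrays, although DLEU2 and SMC4 were both highest with siNT.

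PANK3, a pantothenate kinase gene that holds miR-103a, read 5.90 with siAkt1-22 and 7.98 with siAkt1-58, against 8.53 with siNT. Its 3 probe sets were from -2.63 to -1.74 with siAkt1-22. The miR-103/107 family is known to repress DICER1. PANK3 and DICER1 were both low with siAkt1-22, while PANK1 and PANK2, also on the host list, were 0 and -0.05 from siNT. The microRNAs were not measured, and a link between these values was not tested. VMP1, an autophagy gene that holds miR-21, was higher with siAkt1-22 (9.05 and 7.78, against 7.57).

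Genes described as let-7 targets, a group to which DICER1 itself has been assigned, gave a further view. Of 24 compared, 9 were at least 2-fold lower than siNT with siAkt1-22 (5.97% of all genes), 6 with siAkt1-58 (3.58%) and 5 with both (1.17%). The gene IGF2BP1 was 2-fold higher with siAkt1-22. The list median was -0.45 with siAkt1-22 and -0.09 with siAkt1-58. TGFBR1, DNA2, CCND2 and THBS1 were known to be low when the list was written. Over the other 20 genes, 5 were 2-fold lower with siAkt1-22 and 3 with siAkt1-58, and both medians were 0. Of these 20, only PLAGL2 and CCNJ were 2-fold lower with both siRNAs.

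CCND2, a D-type cyclin, read 3.53 with siAkt1-22 and 7.25 with siAkt1-58, against 8.55 with siNT in its brightest probe set. The value with siAkt1-22 lies under the filter level of 3.93, and the 2 CCND2 probe sets differed in size, at -5.02 and -2.05 with siAkt1-22. Its partner kinase CDK6 read 7.93 and 9.55, against 10.24, with all 4 probe sets lower with both siRNAs. HMGA2, a chromatin protein and classic let-7 target, read 8.84 and 11.01, against 11.12, in its brightest probe set. This order of arrays was like that of DICER1, although 1 of the 5 HMGA2 probe sets was tied at 0 with siAkt1-22. With siAkt1-58, 3 of the 5 were below siNT, with differences from -0.55 to 0.13 over the 5.

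The TGF-beta receptor TGFBR1 (4.69 and 5.79, against 8.56) and the helicase DNA2 (4.98 and 4.55, against 6.90) were low on both siAkt1 arrays. So was the zinc finger gene PLAGL2 (5.51 and 5.07, against 7.25), whose second probe set was tied on all arrays. The RNA-binding protein LIN28B, which blocks let-7 processing, had the same dim value on all 3 arrays.

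**Figure D4:**
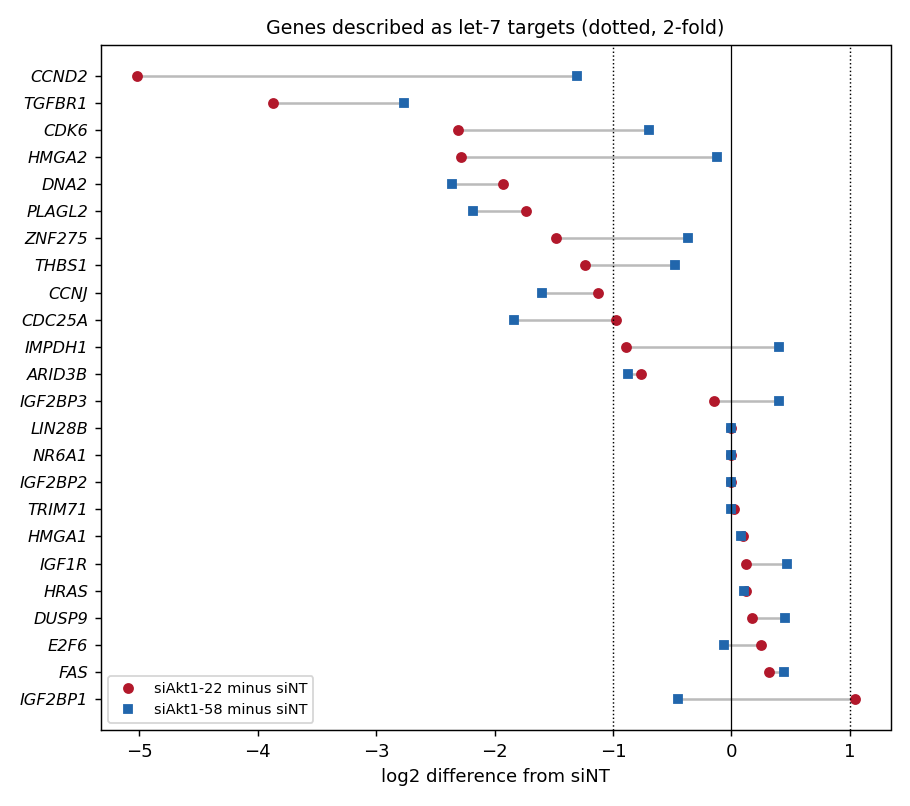
Each row is a gene described as a let-7 target, with the log2 difference of its brightest probe set from siNT for siAkt1-22 (red circle) and siAkt1-58 (blue square) and 2-fold limits dotted. The low values with siAkt1-22 run from -5.02 (CCND2) to -1.12 (CCNJ) for the 9 genes past the limit.

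The low DICER1, AGO1 and XPO5 values were read on the siAkt1-22 array and not on the siAkt1-58 array. On the siAkt1-22 array ACTB (-3.09) and the spiked poly-A controls (median -0.56) also read low. The part of these measures in the differences of the members was not tested. The DICER1 difference between siAkt1-22 and siAkt1-58, which leaves siNT out, was -2.27 in the brightest set and from -2.27 to -1.46 over the 4 sets.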

How the data were processed

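Total RNA (10 ng per sample) was labelled with a 3' in vitro transcription kit, per the labels. The authors deposited log2 expression per probe set. The submitters' processing notes list RMA without version or settings. The log2 scale was inferred from the range of the values. Values were exactly equal on all 3 arrays for 20.7% of probe sets. Such ties were not confined to dim sets, since PABPC1 read 13.00 on all 3. Values near the floor understate differences.

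Of 49386 probe sets, 45253 carried 1 gene symbol, updated through Entrez identifiers for 45172; 1327 with several symbols, 2713 not listed and 93 controls were left out. Each siRNA was its own group of 1 array, so differences were described by size (2-fold limit) and no statistical test was made. The number of arrays limits the precision.

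The genes and lists were chosen with earlier results of these data known. Genes named beyond the members were, of each list, up to 6 that were at least 2-fold from siNT with either siRNA, made up to 3 with the brightest, and the genes nearest in pattern (5 for DICER1, 3 for AGO2 and TNRC6B). THBS1, IGF2BP1, LIN28B, CCNJ, KRT14, PTPRC, CD68 and the genes of the closing observations were named after their values were seen. Alternatives were averaged probe sets, median centring, quantile normalization, a loess correction, no or a stricter filter, a 1.5-fold limit, probe sets as the unit and removal of tied genes. Python 3.11.15, pandas 2.3.3 and statsmodels 0.14.6 were used. The gene table and the 2-fold rule for lower values with both siRNAs were run on simulated arrays with planted differences. This checks the code only, because the noise of the real arrays is not known, and the other steps were not simulated.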

Additional observations from a re-analysis of the deposited data

How the results depend on the processing

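Averaged probe sets, median centring, quantile normalization and a loess correction kept the DICER1 difference between -2.45 and -2.10 with siAkt1-22 and between -0.29 and -0.14 with siAkt1-58. Of 120 such values for the members 118 moved by under 1.5-fold. The exceptions were AGO1 with averaged probe sets, at -1.36 against siNT and -1.37 against siAkt1-58. Averaging also put XPO5 at -0.99 with siAkt1-22, so 2 members in place of 3 were at least 2-fold below siNT there. DROSHA with siAkt1-58 went from -0.15 to 0.12 with averaged probe sets. None of the called differences changed sign, and all 110 list medians moved by less than 1.5-fold. The let-7 target median still varied with siAkt1-22, from -0.89 with tied genes left out to -0.24 with averaged probe sets. With siAkt1-58 it ran from -0.36 with tied genes left out to -0.07 with quantile normalization. These medians include the genes known to be low when the list was written, and without them both main medians were 0.

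Counts depended on the limit and the unit. With a 1.5-fold limit, 1536 genes were lower and 1574 higher with siAkt1-22, 1117 and 841 with siAkt1-58, 458 and 409 with both, and 1381 and 1545 for siAkt1-22 against siAkt1-58. Of the 10 members, 6 were then lower (12% of all genes) and 1 higher (12.3%) with siAkt1-22. With siAkt1-58 these were 1 (8.74%) and 1 (6.58%), and with both 1 (3.58%) and 1 (3.2%). For siAkt1-22 against siAkt1-58, 5 were lower (10.8%). With probe sets as the unit, 1865 were lower and 1101 higher with siAkt1-22, 1006 and 408 with siAkt1-58, 345 and 178 with both, and 1669 and 1275 between the siRNAs. Of the members' 31 probe sets, 7 were lower (6.6% of all probe sets) and 2 higher (3.9%) with siAkt1-22. With siAkt1-58, 5 were higher (1.44%), with both 2 were higher (0.63%), and between the siRNAs 7 were lower (5.91%). Averaged probe sets gave 370 genes higher with siAkt1-22, 81 higher with siAkt1-58, and 99 lower and 43 higher with both. These settings differ in construction from the reported ones. No paired analysis was possible because each siRNA has 1 array. Dim signal limits what can be read of probe sets near or below log2 3.93.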

Other observations

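Of the other list genes compared, only ZSWIM8, TENT4B and SND1 stood above siNT by at least 1.5-fold with both siRNAs, as TNRC6B did. ZSWIM8 and TENT4B are on the list of 12 tailing and decay genes, and SND1 is among the 16 TNRC6 and Argonaute partners. The other lists held none. This class holds 3.2% of all genes compared, and no pattern of the lists as a whole is read from these genes. ZSWIM8, the ubiquitin ligase receptor of target-directed microRNA decay, read 6.91 with siAkt1-22 and 6.93 with siAkt1-58, against 6.05 with siNT. TENT4B, a poly(A) polymerase that can extend microRNAs, read 7.75 and 7.61, against 6.88. The RISC-associated nuclease SND1 read 8.75 and 8.63, against 7.94.

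Among other members of the TNRC6 family, TNRC6A was -0.22 with siAkt1-22 and -0.01 with siAkt1-58, and TNRC6C -0.66 and 0.39, so neither had the TNRC6B pattern in its brightest probe set. The miR-205 host MIR205HG read 8.56 with siAkt1-22 and 10.26 with siAkt1-58, against 9.50 with siNT, and thus lay on opposite sides of siNT. PANK1 and PANK2, which are on the list of host transcripts as PANK3 is, were 0 and -0.05 with siAkt1-22. PANK3 stood at -2.63. These genes were picked after their values were seen, and no difference has a replicate check.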
